A study of Homo sapiens with 10 samples.

Results

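The hypoxia response and glycolysis genes were a set of 41 genes, out of 52402 gene symbols counted, read in BEAS2B cells by mRNA-sequencing. The set held 19 genes of oxygen sensing and its known target programme and 22 genes of glucose uptake, glycolysis and lactate handling. CA9 was picked from its measured fall in the miR-92b inhibitor libraries, so the whole miR92b_inhibitor against miRcontrol contrast, and CA9 in every contrast with miRcontrol, are given as description without a test. The other members were listed by pathway, with earlier results of these data known. One of them, GPI, was listed in 2 rows, which were summed.

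BEAS2B is an immortalised human bronchial epithelial line, and here it was transfected at a final concentration of 50 nM and lysed after 48 h. The 5 groups were miRcontrol (scrambled miRNA), miR3124_mimic (miR-3124-5p mimic), miR200b_mimic (miR-200b-3p mimic), miR92b_inhibitor (miR-92b inhibitor) and 3-miRNA_mixed (all 3 agents together), with 2 libraries each. A mimic adds the mature miRNA and an inhibitor blocks an endogenous one, and the labels do not say which arm of miR-92b was blocked or whether 50 nM in the mixture was shared among the agents. The labels do not state that the libraries of a group came from separate transfections, so p-values measure the spread between these libraries, which may be technical.

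In oxygenated cells, the prolyl hydroxylases encoded by the EGLN genes mark HIF-α proteins for destruction through VHL. When oxygen is short, HIF-1α (HIF1A) and HIF-2α (EPAS1) escape this, bind the core letters ACGTG or GCGTG near target genes, and raise glucose transporters, glycolytic enzymes, lactate export and pH control. No library was labelled as grown at low oxygen, and HIF protein was not measured.

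The mature sequences of the miRNAs are shown because the seed, bases 2 to 8 in capitals, sets which messages a miRNA can pair with. They are RefSeq sequences on GRCh38.p14. Both arms of miR-92b are given, and no seed was shared among the 4.
miR-3124-5p (chr1:248826383-248826403, + strand): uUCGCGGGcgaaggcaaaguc
miR-200b-3p (chr1:1167160-1167181, + strand): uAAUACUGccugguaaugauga
miR-92b-5p (chr1:155195196-155195217, + strand): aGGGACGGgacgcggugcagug
miR-92b-3p (chr1:155195237-155195258, + strand): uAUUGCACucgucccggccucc

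The DNA letters that pair with each seed were searched on the message strand of the 3′UTR of the transcript with the longest coding sequence (GENCODE v29, GRCh38), for 40 members and 12259 tested genes. CCCGCGA, for miR-3124-5p, was in 0 of the 40 members and in 0.498% of all 3′UTRs. CAGTATT, for miR-200b-3p, was in 5 members (EGLN1, CA12, PDK1, SLC2A3 and HK2) and in 17.1% of all. CCGTCCC, for miR-92b-5p, was in EPAS1 and PGK1 and in 3.60% of all, and GTGCAAT, for miR-92b-3p, was in 5 members (ADM, PDK1, SLC2A3, GPI and PGAM1) and in 10.97% of all. A match of letters is a description and not a shown target site. The 5 members with CAGTATT are printed below with 10 bases on each side and the match in capitals, PDK1 by the first of its 3 matches, because their responses to the miR-200b-3p mimic differed in direction.
CA12 (chr15:63322312-63322338, - strand): cacatgtaacCAGTATTttcatgtgtt
HK2 (chr2:74892095-74892121, + strand): attttcttggCAGTATTccatgggatg
PDK1 (chr2:172600158-172600184, + strand): taaaaagccaCAGTATTcttgccatgg
EGLN1 (chr1:231365973-231365999, - strand): gaaaaaattaCAGTATTattcctcaaa
SLC2A3 (chr12:7919766-7919792, - strand): ttgtcagtgaCAGTATTttggttctta

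On the HIF side, promoters of 300 bases (250 before the start and 50 after, RefSeq, GRCh38.p14) were found for 37 of the 41 members. The table used had no entry for VHL, SLC2A3, NDRG1 or BNIP3L. ACGTG or GCGTG, read on both strands, was present in 27 of the 37 (73%), in 62.7% of the promoters of tested genes and in 48.4% of all 27305 promoters. ACGTG alone was in 15 member promoters (40.5%), against 26.4% of tested genes. The promoters of CA9, LDHA and ANGPTL4 are printed with the cores in capitals, since these had the largest fold changes against miRcontrol among members with a promoter entry. CA9 had 1 match, ANGPTL4 had 1 and LDHA had 6, counting both strands of a palindrome.
CA9 (chr9:35673678-35673977, + strand): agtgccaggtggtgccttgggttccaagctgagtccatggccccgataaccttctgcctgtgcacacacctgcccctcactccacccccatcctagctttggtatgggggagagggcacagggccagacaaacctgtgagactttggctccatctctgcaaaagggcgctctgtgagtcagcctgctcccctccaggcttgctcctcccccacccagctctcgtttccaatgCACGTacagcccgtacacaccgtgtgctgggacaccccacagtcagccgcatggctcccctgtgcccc
LDHA (chr11:18394313-18394612, + strand): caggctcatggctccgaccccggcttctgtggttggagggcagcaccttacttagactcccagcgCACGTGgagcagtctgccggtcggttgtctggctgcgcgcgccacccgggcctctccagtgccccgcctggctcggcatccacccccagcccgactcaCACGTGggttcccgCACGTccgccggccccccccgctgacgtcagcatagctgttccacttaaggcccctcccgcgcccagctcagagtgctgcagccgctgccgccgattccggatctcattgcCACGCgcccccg
ANGPTL4 (chr19:8363905-8364204, + strand): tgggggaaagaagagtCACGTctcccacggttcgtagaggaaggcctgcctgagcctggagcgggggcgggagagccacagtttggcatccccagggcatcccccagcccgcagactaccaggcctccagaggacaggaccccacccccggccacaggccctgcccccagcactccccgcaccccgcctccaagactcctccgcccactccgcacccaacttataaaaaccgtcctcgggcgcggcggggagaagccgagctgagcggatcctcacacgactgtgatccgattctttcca

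Library totals ranged from 13587666 to 18503890 counts, and the members took between 1.73% and 2.01% of them. Levels below are in CPM, counts scaled to a common library total after correction by a factor between 0.985 and 1.016. Of the 41 members, 40 passed the filter on low counts. The exception was EGLN3, an oxygen-sensing hydroxylase, with 0 counts in both miRcontrol libraries and at most 5 counts in any library, so no fold change was computed for it. The bronchial label was checked against 10 epithelial markers. KRT7 (mean 793 CPM), KRT8 (814 CPM) and KRT18 (628 CPM) were high in miRcontrol, whereas the defining basal, club and ciliated markers KRT5, TP63, SCGB1A1 and FOXJ1 were at or below 0.174 CPM, and CDH1 and EPCAM were at 0.146 and 0.289 CPM. KRT19, also on the list, was far below KRT7, KRT8 and KRT18 in miRcontrol. The summed level of the 10 epithelial markers was 2220.2 to 2268 CPM in miRcontrol, 2774 to 2781 with miR3124_mimic, 4189 to 4270.3 under miR200b_mimic, 2098 to 2188 under miR92b_inhibitor and 4081 to 4109 in 3-miRNA_mixed. By the call rule given below, 2 of 6 tested rose and 1 fell, by at least 2-fold, with miR-3124-5p. All 6 rose with miR-200b-3p, and in the mixture 5 rose and 1 fell, by 1.65 on the log2 scale. Of all genes, 25.7% rose and 25.3% fell with miR-3124-5p. The shares were 21.4% and 19.1% with miR-200b-3p, and 21.5% and 21.1% in the mixture. The sum of 7 mesenchymal markers was 7534 to 7563 CPM in miRcontrol, 4692 to 4822 with miR3124_mimic, 4724 to 4777 under miR200b_mimic, 7036 to 7193 under miR92b_inhibitor and 5143 to 5165 in 3-miRNA_mixed. VIM, the largest of these in miRcontrol, fell by 2.23 on the log2 scale with miR-3124-5p. Of the 6 mesenchymal markers tested there, VIM was the only one called lower, while 2 were called higher and 3 were not called. With miR-200b-3p and in the mixture, 1 of the 6 mesenchymal markers was called higher and 4 lower. These markers moved with the groups, their part in the members' fold changes was not tested, and in bulk RNA fewer cells of a type and less RNA per cell cannot be told apart. Of the leukocyte markers, CD68 was at 18.5 to 39.7 CPM as group means, and PTPRC, CD3E and LYZ were at or below 0.232 CPM. Of 4 endothelial markers, CDH5 was at 4.03 and 2.49 CPM in miR3124_mimic and PECAM1 stayed at or below 0.197 CPM in every group mean.

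How did the members respond to each agent as a set? With the miR-3124-5p mimic, LDHA, both hexokinase genes, PDK1 and ALDOA fell while ANGPTL4, SLC2A3, CA12 and NDRG1 rose. A gene was called at a Benjamini-Hochberg adjusted p under 0.05 by edgeR's quasi-likelihood test over 14884 genes. In that comparison, 16 of the 39 tested members other than CA9 were called higher and 15 lower, against 25.7% and 25.3% of all genes tested. Their log2 fold changes ran from -1.73 to 2.84 with a median of -0.0009 (all genes, 0.00). Changes of at least 2-fold were called higher for 3 of them (ANGPTL4, SLC2A3 and CA12) and lower for 2 (LDHA and ANKRD37), against 8.13% of all genes in either direction.

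With the miR-200b-3p mimic, 9 of the 39 were called higher and 21 lower, where 21.4% and 19.1% of all genes were. The median log2 fold change was -0.16, against -0.01 over all genes. At 2-fold or more, 1 of them was higher (ANGPTL4) and 1 lower (CA12), against 4.88% of all genes in either direction. All 6 genes of lower glycolysis tested (GAPDH, PGK1, PGAM1, ENO1, ENO2 and PKM) fell, by 0.08 to 0.45 on the log2 scale, and 7 of 9 upper-glycolysis genes fell. PGK1 and PKM passed narrowly, at edgeR adjusted p-values of 0.0368 and 0.0371, and were not checked at other settings. Both glucose transporters rose.

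In the mixture, 11 of the 39 were called higher and 14 lower, against 21.5% and 21.1% of all genes, with a median of -0.02. ANGPTL4 and SLC2A3 were higher by 2-fold or more and none of the 39 was lower by that much, where 4.67% of all genes passed in either direction. For the miR-92b inhibitor, the contrast that picked CA9, 6 of the 40 tested members lay on the higher and 25, CA9 included, on the lower side of the same threshold, against 17.5% and 18.2% of all genes. One member was at least 2-fold higher (ANGPTL4) and 1 at least 2-fold lower (CA9), against 1.91%. Its median was -0.26 with CA9 and -0.25 without it. Nothing is read from these counts. All 4 contrasts used the same 2 miRcontrol libraries, so they are not independent of each other.

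**Figure D1:**
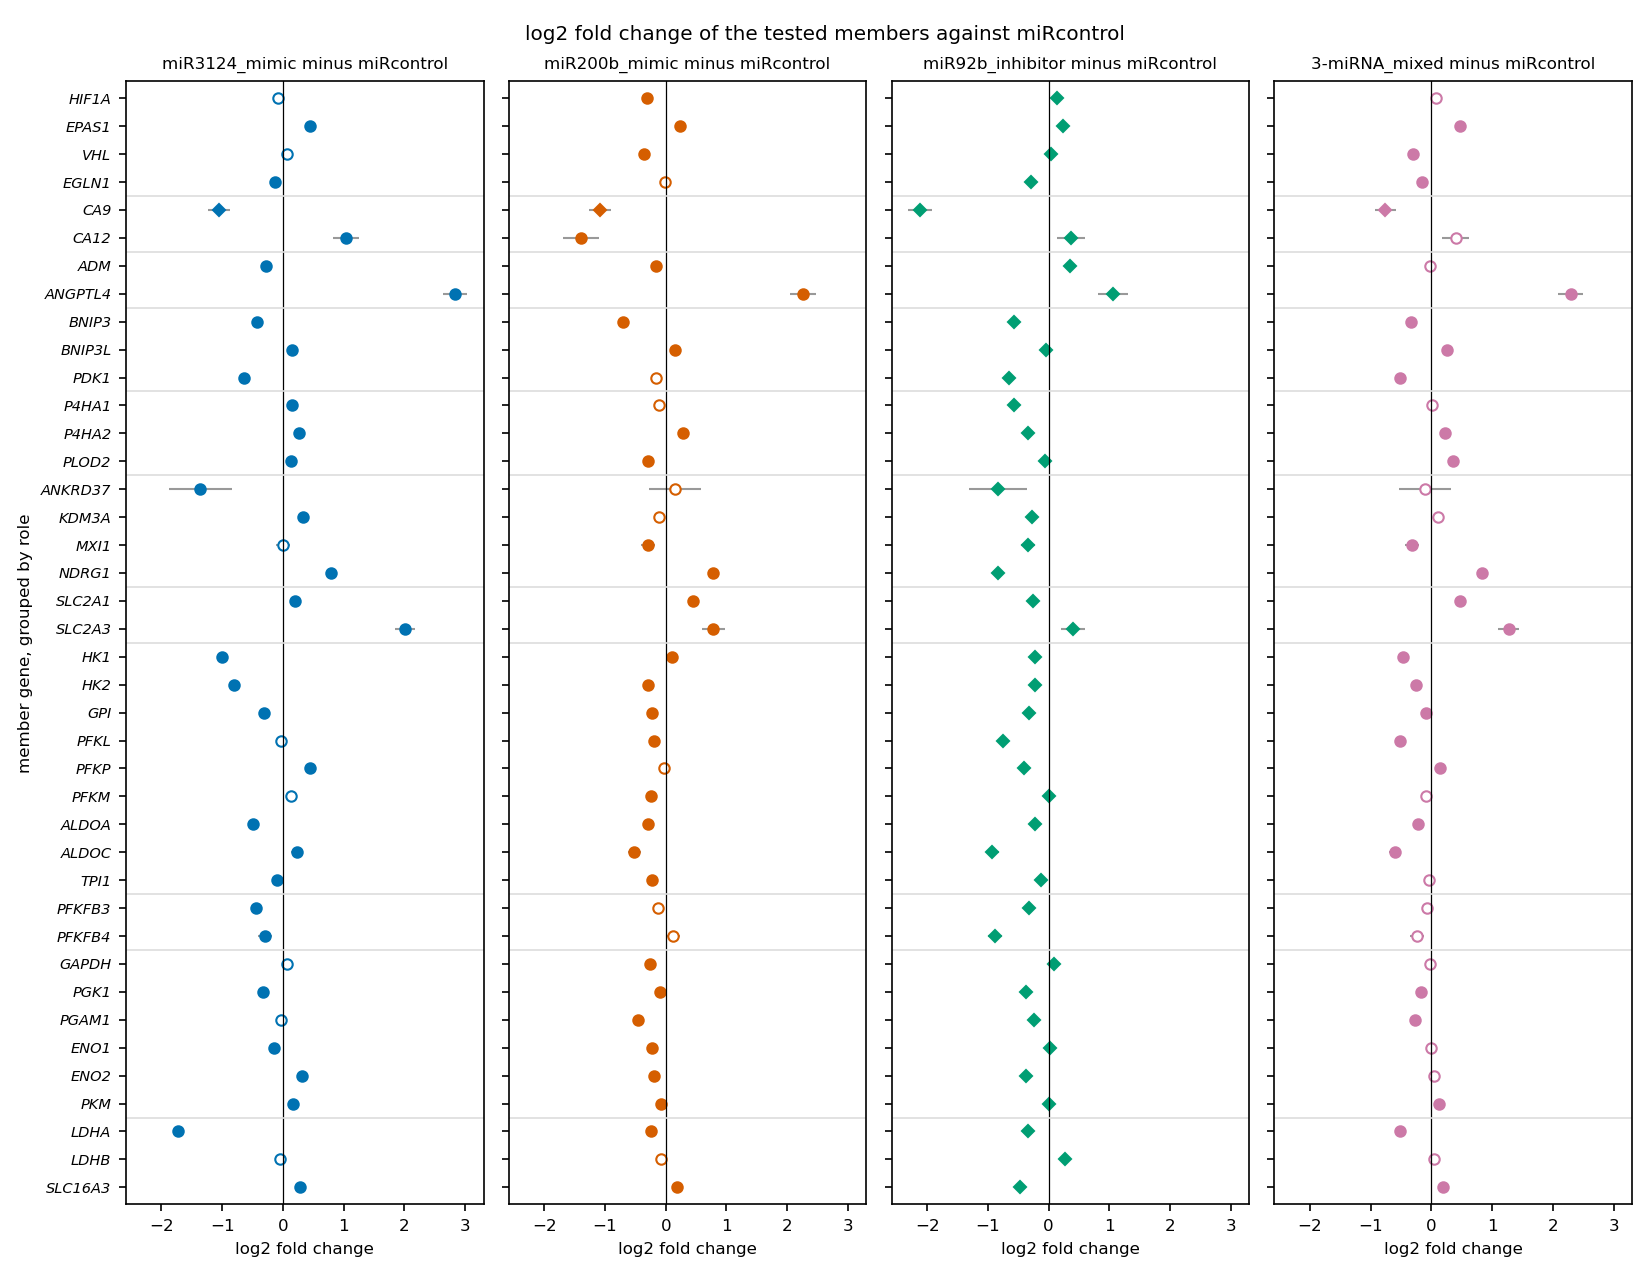
log2 fold change of the 40 tested members against miRcontrol (x axis) for each transfected group, ordered by role (y axis), with bars of 1 standard error; filled circles passed an adjusted p of 0.05, open circles did not, and diamonds (CA9 and the inhibitor) mark values given without a test. ANGPTL4 reaches 2.84 and LDHA -1.73 with the miR-3124-5p mimic, and CA9 reaches -2.11 with the miR-92b inhibitor.

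The oxygen-sensing genes had log2 fold changes between -0.35 and 0.48. HIF1A, the oxygen-regulated α subunit, was at 365 and 341 CPM in miRcontrol, 351 and 317 with miR3124_mimic, 284 and 283 under miR200b_mimic, 388 and 393 under miR92b_inhibitor and 369 and 379 in 3-miRNA_mixed. Both miR200b_mimic libraries lay below all others. HIF1A fell by 0.32 (SE 0.041) on the log2 scale with the miR-200b-3p mimic (edgeR quasi-likelihood adjusted p = 1.32e-08), and its values of -0.08 with miR-3124-5p and 0.08 with the mixture were not called. Without 1 library the value for miR-3124-5p became a call, at -0.132 without miRcontrol replicate 2 and -0.155 without miR3124_mimic replicate 1, and the value for the mixture did so at 0.135 without miRcontrol replicate 1.

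EPAS1, the HIF-2α subunit, was at 235 and 228 CPM in miRcontrol, 316 in both miR3124_mimic libraries, 265 and 279 under miR200b_mimic, 270.3 and 275 under miR92b_inhibitor and 325 and 319 in 3-miRNA_mixed. The miRcontrol libraries were the lowest of the 10. It rose by 0.45 (SE 0.038) with miR-3124-5p, 0.24 (SE 0.039) with miR-200b-3p and 0.48 (SE 0.038) in the mixture, with edgeR adjusted p-values of 4.59e-14, 2.03e-06 and 1.05e-14. The mixture did not differ detectably from the miR-3124-5p mimic alone (0.03, SE 0.037, adjusted p = 0.590).

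VHL, whose product recognises hydroxylated HIF-α, fell by 0.35 with miR-200b-3p and by 0.30 in the mixture, and its 0.06 with miR-3124-5p was not called. EGLN1, the main HIF prolyl hydroxylase, fell by 0.14 with miR-3124-5p and by 0.16 in the mixture. Its value with miR-200b-3p was -0.01 and not called, and its 3′UTR is among those that hold CAGTATT.

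Gene positions given from here on are GENCODE v29 bounds on GRCh38. The pH genes CA9 and CA12 encode membrane carbonic anhydrases that face the outside of the cell. CA9 (chr9:35673856-35681159) stood at 7.44 and 9.49 CPM in miRcontrol, 4.23 and 3.96 with miR3124_mimic, 4.34 and 3.74 under miR200b_mimic, 1.81 and 2.08 under miR92b_inhibitor and 5.31 and 4.68 in 3-miRNA_mixed. The miRcontrol libraries were the highest and the miR92b_inhibitor libraries the lowest, with no overlap between either and the rest. These levels rest on 31 to 159 counts per library. The log2 fold change was -2.11 (SE 0.20) for the inhibitor, the value by which CA9 was picked, and was -1.05 for miR-3124-5p, -1.07 for miR-200b-3p and -0.76 for the mixture. Since the same miRcontrol libraries entered the choice, no test is read from those. In contrasts that used none of these libraries, the mixture lay 0.29 (SE 0.19) above the miR-3124-5p mimic and 0.32 (SE 0.20) above the miR-200b-3p mimic, and neither difference passed the edgeR test (adjusted p = 0.224 and 0.211). The 2 mimics differed by 0.03 (SE 0.21, adjusted p = 0.920).

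CA12 (chr15:63321378-63382161) was the member with the widest gap between the mimics. It was at 2.35 and 3.70 CPM in miRcontrol, 5.87 and 6.51 with miR3124_mimic, 1.35 and 0.978 under miR200b_mimic, 4.38 and 3.45 under miR92b_inhibitor and 4.26 and 3.71 in 3-miRNA_mixed. The miR3124_mimic libraries lay above every other and the miR200b_mimic libraries below. CA12 rose by 1.04 (SE 0.21) with miR-3124-5p and fell by 1.40 (SE 0.30) with miR-200b-3p, edgeR adjusted p-values 5.34e-05 and 0.000141, and the mimics differed from each other by 2.44 (SE 0.27, adjusted p = 5.24e-11). The mixture lay between them, 0.64 below miR-3124-5p and 1.80 above miR-200b-3p, both called. Its value of 0.40 against miRcontrol was not called, and it ran from 0.106 without miRcontrol replicate 1 to 0.760 without replicate 2, when it was called.

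Among secreted targets, ANGPTL4 (chr19:8363289-8374373), a lipoprotein lipase inhibitor induced by hypoxia and by fatty-acid sensing receptors, had the largest rise of any member. It was at 1.43 and 1.61 CPM in miRcontrol, 10.4 and 11.4 with miR3124_mimic, 6.21 and 8.23 under miR200b_mimic, 3.33 and 3.01 under miR92b_inhibitor and 7.52 and 7.43 in 3-miRNA_mixed. All 8 libraries outside miRcontrol lay above both miRcontrol libraries. The rise was 2.84 (SE 0.20) with miR-3124-5p, 2.26 (SE 0.21) with miR-200b-3p and 2.29 (SE 0.21) in the mixture, with edgeR adjusted p-values of 6.63e-17, 2.23e-12 and 6.42e-13. The mixture was 0.54 lower than miR-3124-5p alone (adjusted p = 0.00154) and not detectably different from miR-200b-3p alone (0.03, SE 0.16, adjusted p = 0.895). ADM, which encodes the vasodilator adrenomedullin, fell by 0.27 with miR-3124-5p and by 0.16 with miR-200b-3p, and was 0.36 higher than miRcontrol with the inhibitor.

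BNIP3 and BNIP3L mark mitochondria for autophagy, and PDK1 inhibits the mitochondrial enzyme pyruvate dehydrogenase. BNIP3 was at 237 and 246 CPM in miRcontrol, 178 and 183 with miR3124_mimic, 157 and 141 under miR200b_mimic, 166 and 161 under miR92b_inhibitor and 192 and 191 in 3-miRNA_mixed. Both miRcontrol libraries were above all others. It fell by 0.42 (SE 0.043) with miR-3124-5p, 0.70 (SE 0.044) with miR-200b-3p and 0.33 (SE 0.042) in the mixture, all called, while its homologue BNIP3L rose by 0.16, 0.16 and 0.25.

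PDK1 was at 52.3 and 49.8 CPM in miRcontrol, 34.1 and 31.7 with miR3124_mimic, 45.5 and 46.0 under miR200b_mimic, 33.6 and 31.7 under miR92b_inhibitor and 36.8 and 34.7 in 3-miRNA_mixed. The miR200b_mimic pair lay between miRcontrol and the rest. PDK1 fell by 0.64 (SE 0.069) with miR-3124-5p and by 0.51 (SE 0.066) in the mixture (edgeR adjusted p = 5.17e-11 and 9.02e-09). With miR-200b-3p, for which its 3′UTR holds 3 copies of CAGTATT, the value was -0.16 (SE 0.066) with an adjusted p of 0.0503, and it became a call under library totals only (-0.168) and when only these groups were fitted (-0.162).

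The collagen hydroxylases P4HA1, P4HA2 and PLOD2 modify collagen in the endoplasmic reticulum. All 3 rose with miR-3124-5p, by 0.14, 0.27 and 0.14. The P4HA1 rise (edgeR adjusted p = 0.0269) came from 108 and 120 CPM, against 103 in both miRcontrol libraries. It was not checked at other settings. With miR-200b-3p, P4HA2 rose by 0.29 and PLOD2 fell by 0.30. In the mixture, P4HA2 rose by 0.22 and PLOD2 by 0.36. With the inhibitor their values were -0.56 for P4HA1, -0.33 for P4HA2 and -0.06 for PLOD2.

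NDRG1, a stress-response gene, was higher than miRcontrol with both mimics and lower with the inhibitor. It was at 54.4 and 62.2 CPM in miRcontrol, 95.6 and 106 with miR3124_mimic, 96.6 and 103 under miR200b_mimic, 32.0 and 33.6 under miR92b_inhibitor and 111 and 97.7 in 3-miRNA_mixed. The inhibitor libraries were the lowest, and the mimic and mixture libraries overlapped each other above miRcontrol. It rose by 0.79 (SE 0.062), 0.78 (SE 0.062) and 0.84 (SE 0.061) with miR-3124-5p, miR-200b-3p and the mixture (edgeR adjusted p = 2.95e-15, 1.01e-14 and 4.48e-16), and its value with the inhibitor was -0.83 (SE 0.072). The mixture differed from miR-3124-5p by 0.05 (SE 0.057) and from miR-200b-3p by 0.06 (SE 0.057), neither called.

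KDM3A, a histone demethylase, rose by 0.33 with miR-3124-5p, and MXI1, a MYC antagonist, fell by 0.29 with miR-200b-3p and by 0.32 in the mixture. ANKRD37 was near the limit of these libraries, at 1.09 and 0.836 CPM in miRcontrol, 0.341 and 0.396 with miR3124_mimic, 1.12 and 1.04 under miR200b_mimic, 0.642 and 0.438 under miR92b_inhibitor and 0.829 and 0.969 in 3-miRNA_mixed. Its value of -1.36 (SE 0.52) with miR-3124-5p, from 5 and 7 counts, was called by edgeR (adjusted p = 0.0263) but not by DESeq2, and not without miRcontrol replicate 1 (-1.16) or either miR3124_mimic library (-1.27 and -1.48).

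**Figure D2:**
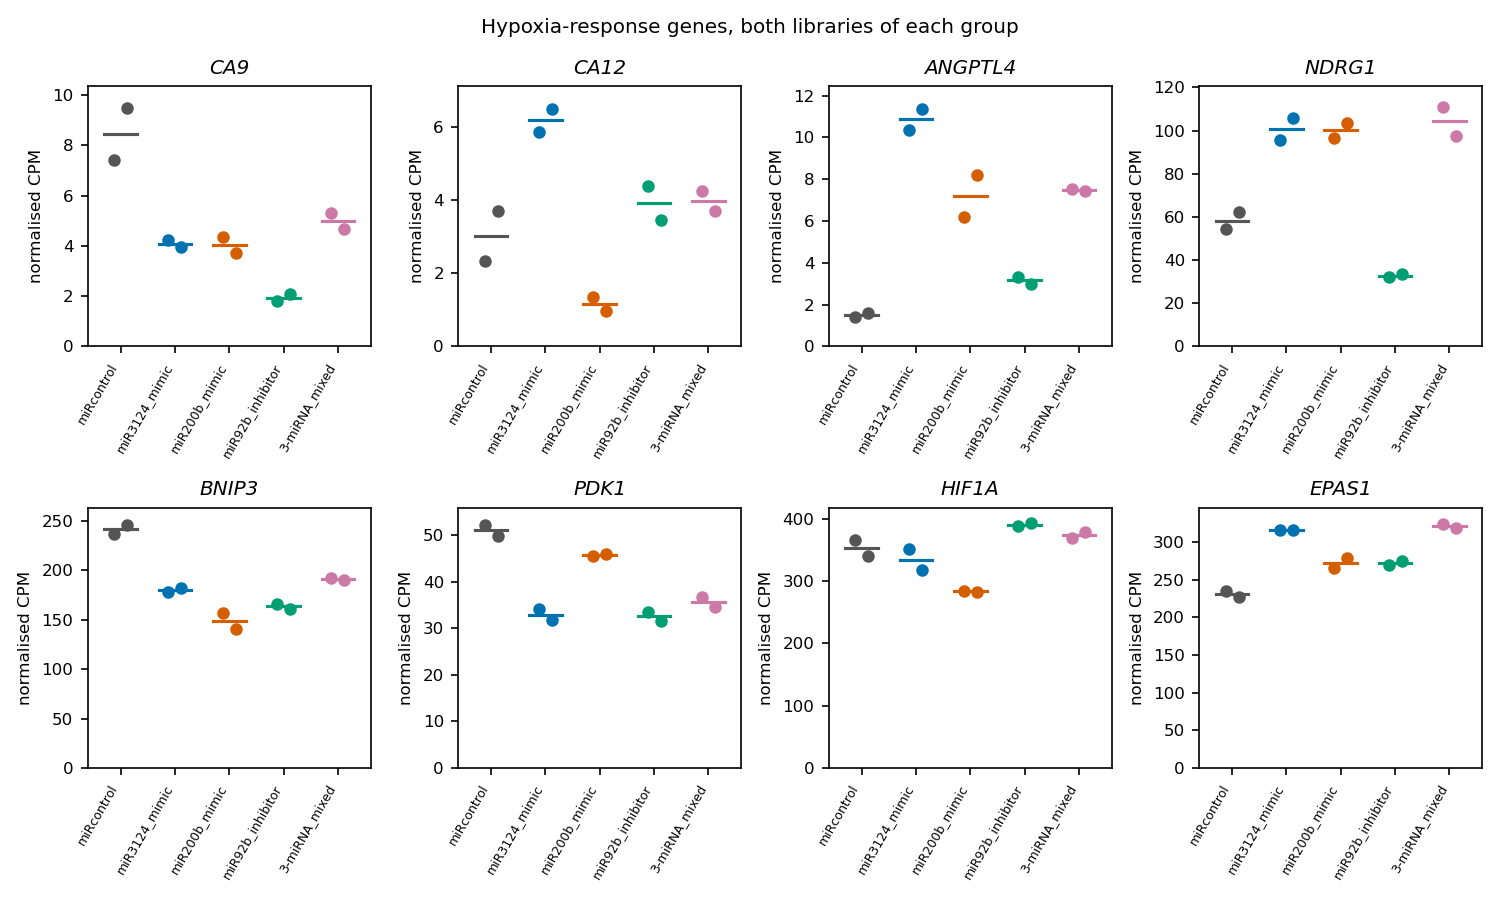
Normalised CPM (y axis, from 0) of 8 hypoxia-response genes in both libraries (points) of each of the 5 groups (x axis), with lines at the group means. ANGPTL4 sits above miRcontrol in all 8 other libraries, CA9 and BNIP3 sit below it in all 8, and NDRG1 is high in the mimic and mixture groups and lowest in miR92b_inhibitor.

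Which steps of glucose use moved? At uptake, SLC2A1, the basal glucose transporter GLUT1, was at 302 and 316 CPM in miRcontrol, 347 and 364 with miR3124_mimic, 414 and 429 under miR200b_mimic, 268 and 251 under miR92b_inhibitor and 436 and 419 in 3-miRNA_mixed. Only the inhibitor libraries lay below miRcontrol. SLC2A1 rose by 0.20 (SE 0.039) with miR-3124-5p, 0.45 (SE 0.039) with miR-200b-3p and 0.47 (SE 0.039) in the mixture, all called.

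SLC2A3 (chr12:7919230-7936275), the high-affinity transporter GLUT3, was at 2.86 and 3.58 CPM in miRcontrol, 13.4 and 12.6 with miR3124_mimic, 4.94 and 6.04 under miR200b_mimic, 3.97 and 4.54 under miR92b_inhibitor and 7.58 and 8.02 in 3-miRNA_mixed. The miR3124_mimic libraries were the highest and the mixture next, with no overlap between these groups. It rose by 2.01 (SE 0.16), 0.78 (SE 0.19) and 1.28 (SE 0.17) with miR-3124-5p, miR-200b-3p and the mixture (edgeR adjusted p = 9.83e-15, 0.000684 and 3.28e-08). Its 3′UTR is 1 of the 5 that hold CAGTATT. Its near-identical relative SLC2A14 may share reads with it, so the level is uncertain.

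The hexokinases HK1 and HK2 trap glucose by phosphorylation. HK1 (chr10:69269984-69401884) was at 326 and 355 CPM in miRcontrol, 165 and 175 with miR3124_mimic, 370.3 and 364 under miR200b_mimic, 305 and 279.6 under miR92b_inhibitor and 250.2 and 243 in 3-miRNA_mixed. The miR3124_mimic libraries were the lowest and the mixture next, and the miR200b_mimic pair lay above both miRcontrol libraries. HK1 fell by 0.999 (SE 0.044) with miR-3124-5p and by 0.46 (SE 0.042) in the mixture (edgeR adjusted p = 2.58e-24 and 5.18e-13). Its 0.11 (SE 0.041) with miR-200b-3p was called at an adjusted p of 0.0297 but not by DESeq2, nor without miRcontrol replicate 1 (0.0508) or either miR200b_mimic library (0.0997 and 0.124).

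HK2 was at 221 and 219 CPM in miRcontrol, 123 and 127 with miR3124_mimic, 177 and 180.4 under miR200b_mimic, 195 and 182 under miR92b_inhibitor and 185 and 184 in 3-miRNA_mixed. Both miRcontrol libraries were the highest. It fell by 0.81 (SE 0.043) with miR-3124-5p, 0.30 (SE 0.041) with miR-200b-3p and 0.25 (SE 0.040) in the mixture, all called. The mixture was 0.56 (SE 0.043) above miR-3124-5p alone and 0.05 (SE 0.042, not called) from miR-200b-3p alone.

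Of the phosphofructokinase subunits, which form the committed step, PFKP rose by 0.44 with miR-3124-5p. PFKL was at 162 and 169 CPM in miRcontrol, 161 and 163 with miR3124_mimic, 139 and 151 under miR200b_mimic, 101 and 96.2 under miR92b_inhibitor and 118 and 113 in 3-miRNA_mixed. The inhibitor and mixture pairs were the lowest. PFKL fell by 0.51 (SE 0.045) in the mixture and by 0.19 (SE 0.045) with miR-200b-3p, its -0.03 with miR-3124-5p was not called, and it was -0.74 (SE 0.046) with the inhibitor. The mixture was lower than miR-3124-5p by 0.48 and lower than miR-200b-3p by 0.33, both called, and was not tested against the inhibitor.

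The bifunctional regulators PFKFB3 and PFKFB4 set the level of an activator of that step. PFKFB3 fell by 0.45 with miR-3124-5p. PFKFB4 was at 19.9 and 24.5 CPM in miRcontrol, 18.1 and 18.0 with miR3124_mimic, 23.1 and 25.1 under miR200b_mimic, 10.8 and 13.2 under miR92b_inhibitor and 21.9 and 15.8 in 3-miRNA_mixed. The inhibitor pair was the lowest, with a value of -0.88 (SE 0.12). Its -0.30 with miR-3124-5p was called by edgeR (adjusted p = 0.0263) and not by DESeq2, nor without miRcontrol replicate 2 (-0.142) or either miR3124_mimic library (-0.302 and -0.295). Its -0.24 in the mixture was not called, and became a call without miRcontrol replicate 1 (-0.383) or 3-miRNA_mixed replicate 1 (-0.490).

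ALDOC, the minor aldolase here, was at 24.2 and 23.7 CPM in miRcontrol, 26.4 and 29.4 with miR3124_mimic, 16.3 and 17.1 under miR200b_mimic, 13.4 and 11.8 under miR92b_inhibitor and 18.1 and 13.6 in 3-miRNA_mixed. Only the miR3124_mimic libraries lay above miRcontrol. ALDOC fell by 0.52 (SE 0.10) with miR-200b-3p and by 0.60 (SE 0.10) in the mixture, both called, and was -0.93 (SE 0.11) with the inhibitor. Its 0.22 with miR-3124-5p sat at an edgeR adjusted p of 0.0476, and was not called under TMM normalization, with no filter, by DESeq2, without either miRcontrol library (0.238 and 0.205) or without miR3124_mimic replicate 2 (0.136). ALDOA, the major aldolase, fell by 0.49, 0.30 and 0.23 with miR-3124-5p, miR-200b-3p and the mixture.

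The other upper enzymes moved less. GPI fell by 0.30, 0.22 and 0.09 in these 3 groups, TPI1 fell by 0.10 and 0.22 with the mimics, and PFKM fell by 0.25 with miR-200b-3p. In lower glycolysis, GAPDH, often used as a reference gene, was at 3641 and 3781 CPM in miRcontrol, 3804 and 3945 with miR3124_mimic, 3102 and 3089.6 under miR200b_mimic, 3995 and 3928 under miR92b_inhibitor and 3695 and 3633 in 3-miRNA_mixed. The miR200b_mimic pair was the lowest, 0.26 (SE 0.032) below miRcontrol on the log2 scale (edgeR adjusted p = 2.38e-09), while 0.06 with miR-3124-5p and -0.02 in the mixture were not called.

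PGK1, the first ATP-forming step, fell by 0.33, 0.09 and 0.17 with miR-3124-5p, miR-200b-3p and the mixture. ENO2 and PKM rose with miR-3124-5p, by 0.32 and 0.17, and fell with miR-200b-3p, by 0.20 and 0.08. PGAM1 fell by 0.45 with miR-200b-3p and by 0.27 in the mixture. ENO1 fell by 0.15 and 0.22 with the mimics. GAPDH, PGK1, PGAM1, LDHA and other abundant glycolytic genes have processed pseudogenes that can share reads, and the counting of such reads is not given in the sources used here.

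The largest fall of any tested member with miR-3124-5p was at the lactate step. LDHA (chr11:18394388-18408425), the subunit of lactate dehydrogenase that favours lactate, was at 1858 and 1908 CPM in miRcontrol, 563 and 575 with miR3124_mimic, 1628 and 1548 under miR200b_mimic, 1512 and 1455 under miR92b_inhibitor and 1302 and 1317 in 3-miRNA_mixed. The groups did not overlap. LDHA fell by 1.73 (SE 0.035) with miR-3124-5p, to 0.302 of miRcontrol (edgeR adjusted p = 2.15e-37), and by 0.25 (SE 0.033) and 0.52 (SE 0.033) with miR-200b-3p and the mixture (3.30e-08 and 5.33e-18). The mixture was 1.20 (SE 0.035) above miR-3124-5p alone (adjusted p = 8.28e-31).

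LDHB, the other subunit, was at 347 and 353 CPM in miRcontrol and at 345 and 335 in miR3124_mimic, and its value there of -0.04 (SE 0.040) was not called. It was 0.27 higher with the inhibitor. Per kilobase of annotated exon, LDHA made up 71.98% and 72.2% of LDHA plus LDHB in miRcontrol, 43.9% and 45.2% with miR3124_mimic, 69.1% and 70.5% under miR200b_mimic, 63.1% and 62.4% under miR92b_inhibitor and 63.3% and 64.0% in 3-miRNA_mixed. The share depends on the length used. With the length of the transcript with the longest coding sequence, the means were 78.2% in miRcontrol and 52.8% in miR3124_mimic. HK1 by contrast kept a mean of 56.2% to 59.9% of HK1 plus HK2 per exon kilobase in 4 groups and reached 66.5% (SD 0.59, n = 2) in miR200b_mimic. SLC16A3, the lactate exporter MCT4, rose by 0.29 with miR-3124-5p, 0.19 with miR-200b-3p and 0.19 in the mixture, and was -0.48 with the inhibitor.

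**Figure D3:**
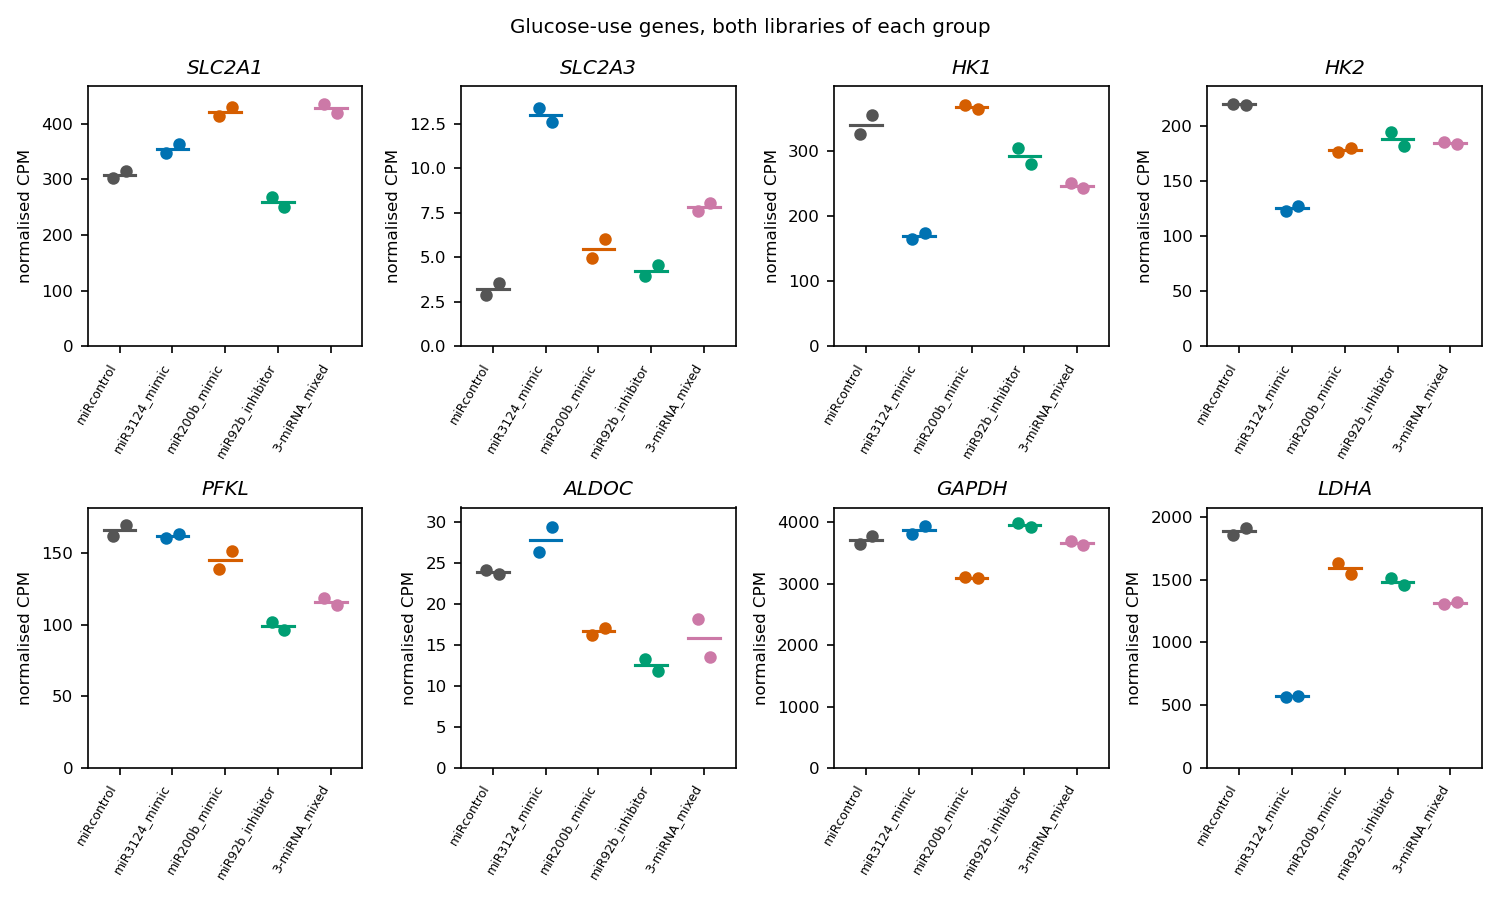
Normalised CPM (y axis, from 0) of 8 glucose-use genes in both libraries (points) of each of the 5 groups (x axis), with lines at the group means. LDHA, HK1 and HK2 are lowest in miR3124_mimic, where SLC2A3 is highest, and PFKL and ALDOC are lowest in miR92b_inhibitor.

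**Figure D4:**
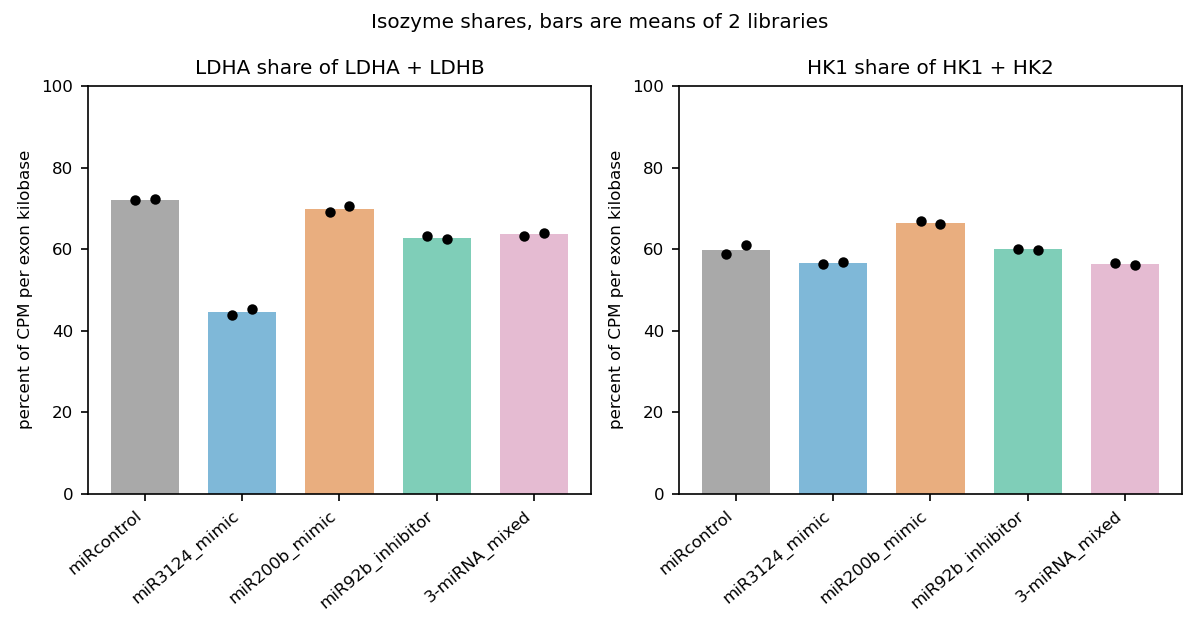
Percent of CPM per exon kilobase (y axis, 0 to 100) held by LDHA within LDHA plus LDHB and by HK1 within HK1 plus HK2, for each group (x axis); bars are means and points the 2 libraries. The LDHA share is 72.1% in miRcontrol and 44.6% in miR3124_mimic.

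With the inhibitor, given as values only, the 9 upper-glycolysis genes lay between -0.93 (ALDOC) and 0.01 (PFKM) on the log2 scale against miRcontrol, with HK1 and HK2 both at -0.22 and PFKP at -0.40. The 6 lower-glycolysis genes lay between -0.37 (PGK1 and ENO2) and 0.09 (GAPDH), LDHA was at -0.34 (SE 0.033), BNIP3 at -0.56 and PDK1 at -0.65. HIF1A and EPAS1 lay on the other side of 0, at 0.15 and 0.24.

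Did the mixture follow one of its parts? It was compared only with the mimics, so no answer is given for the inhibitor. Against the miR-3124-5p mimic alone, 14 members were called higher and 15 lower, where 25.3% and 23.8% of all genes were. LDHA, HK1 and HK2 were higher in the mixture, by 1.20, 0.53 and 0.56, and ALDOC, SLC2A3, CA12, ANGPTL4 and PFKL were lower, by 0.82, 0.73, 0.64, 0.54 and 0.48. Against the miR-200b-3p mimic alone, 17 members were higher and 6 lower, where 18.2% and 20.4% of all genes were. CA12, PLOD2 and SLC2A3 were higher, by 1.80, 0.66 and 0.49, and HK1 was lower by 0.57. Between the mimics, 21 members were higher and 11 lower with miR-3124-5p, against 27.9% and 29.9% of all genes.

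Beyond the members, 25 other hypoxia genes, 32 other genes of glucose metabolism and 16 other genes of carbonic anhydrase and ion transport were read, of which 24, 21 and 7 passed the filter. Of the 24 hypoxia genes, 7 rose and 8 fell with miR-3124-5p, 6 rose and 6 fell with miR-200b-3p, and 9 rose and 5 fell in the mixture. The shares of all genes called in these comparisons were 25.7% higher and 25.3% lower, 21.4% and 19.1%, and 21.5% and 21.1%, and the counts of all 3 lists are to be read against them. Of the 21 genes of glucose metabolism, 6 rose and 4 fell, 7 rose and 3 fell, and 5 rose and 8 fell in the same order. Of the 7 in the third list, 4 rose with miR-3124-5p, and 1 fell with miR-200b-3p and 1 in the mixture. STC1, a secreted glycoprotein, rose by 1.55 (SE 0.042) in the mixture, with levels of 115 and 107 CPM in miRcontrol and 326 and 323 in 3-miRNA_mixed. LOX, a collagen cross-linking enzyme, fell by 2.11 (SE 0.048) with miR-200b-3p, from 305 and 289 CPM in miRcontrol to 72.3 and 66.0, and by 1.004 in the mixture. RORA rose by 1.38 with miR-3124-5p and 1.23 in the mixture, PPFIA4 fell to 0.4998 of miRcontrol in the mixture, and PFKFB2, a relative of PFKFB3, rose by 1.12 with miR-200b-3p. The lactate transporter gene SLC16A1 was listed at 0 counts in 9 of 10 libraries and at 1 count in the other. The annotation behind the counts is not given, and whether these values reflect the message or the counting was not tested.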

How the data were processed

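The deposited files hold raw read counts per gene, which the authors made from paired-end 100-base reads of poly(A)-selected, strand-marked libraries. Raw reads were checked with FastQC and trimmed with FASTX_Trimmer and BBMap. They were mapped with TopHat to GRCh38, as named in the submitters' processing notes. The counting tool and annotation are not given in the sources used here. Each library lists 58173 rows, and 5771 rows that repeat a symbol were summed. edgeR 4.0.16 (limma 3.58.1, R 4.3.3) was run on all 10 libraries in 1 fit: filterByExpr, RLE normalization, quasi-likelihood test, no covariates, Benjamini-Hochberg adjustment. A standard error is the absolute log2 fold change over the root of F. The fit was tested on simulated data. Alternatives were DESeq2 1.42.0, TMM, library totals, no filter, only the groups compared, a replicate block, and each library left out. Figures used matplotlib.

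The members and gene lists were chosen with earlier results of these data known. CA9, HIF1A, SLC2A1, LDHA and GAPDH were described in every library. So were members called with a fold change of at least 1.5 against miRcontrol. That rule took in the miR92b_inhibitor contrast, and PFKL and PFKFB4 met it only there (log2 fold changes -0.745 and -0.882). EPAS1 and LDHB were added after their values were seen. Genes of the other lists were named if called at 2-fold or more against miRcontrol, at most 3 rises and 3 falls, and SLC16A1 was added after its values were seen. Libraries of a group differed by more than counting noise (chi-square per degree of freedom 1.75 to 2.63), and none were merged. Same-numbered libraries did not deviate together (correlations -0.0352 to 0.0359 over 12585 genes).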

Additional observations from a re-analysis of the deposited data

Results flagged for a closer look

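In 6 members the mimics moved the message in opposite directions against the same miRcontrol libraries, both calls were made, and the difference between the mimics was itself called by edgeR's quasi-likelihood test. Given as miR-3124-5p minus miR-200b-3p on the log2 scale, CA12 differed by 2.44, ALDOC by 0.741, ENO2 by 0.516, PLOD2 by 0.436 and PKM by 0.255, each higher with miR-3124-5p. HK1 differed by -1.11 and was lower with miR-3124-5p. For ALDOC the call with miR-3124-5p alone, and for HK1 the call with miR-200b-3p alone, were lost under several alternatives. ENO2, PLOD2 and PKM were not recomputed under the alternatives. The fall of PKM with miR-200b-3p was small, at -0.08 with an edgeR adjusted p of 0.0371. No group held enough libraries to look for a single library far from its group.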

How the results depend on the processing

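With 2 libraries per group the fit borrows its spread across groups, and the members with few counts (CA9, CA12, ANGPTL4, ANKRD37, SLC2A3) carry standard errors of 0.137 to 0.522 on the log2 scale. All 140 recomputed counts of members called, over the 40 tested with CA9 included, stayed within 1.5 times the same counts at the settings of the report. The median over members moved by more than the spread between replicates in 4 of 70 recomputations. These tallies and the next one include the miR92b_inhibitor contrast and CA9 against miRcontrol, from which no test is read. For the members that the rule described in every library (EPAS1 and LDHB were not recomputed), 641 recomputed fold changes kept their direction and their side of the threshold, 13 became calls, 21 lost theirs and 5 changed sign. The 5 were uncalled values, given here with the highest or lowest value over the libraries left out: ANKRD37 with miR-200b-3p was -0.0167 without miRcontrol replicate 2 (highest 0.363), PFKFB4 with miR-200b-3p was -0.0168 without miRcontrol replicate 1 (highest 0.285), GAPDH in the mixture was 0.00751 without miRcontrol replicate 2 (lowest -0.0455), and ANKRD37 in the mixture was 0.106 without miRcontrol replicate 1 and 0.00873 without 3-miRNA_mixed replicate 1 (lowest -0.273). With the replicate block the counts were 16 higher and 16 lower for miR-3124-5p with CA9 included, as without the block, and no count of calls moved by more than 1.5 times. The replicate numbers were only names here.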
